A study of Salmo salar with 37 samples.

Results

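The genes described here are those of the protein-making machinery: ribosomal proteins of the cytosol and of mitochondria, aminoacyl-tRNA synthetases, translation initiation and elongation factors, nucleolar proteins, and the RNA polymerase subunits and factors that the same search words brought in. They are represented by 92 of the 43689 probes of a salmon oligonucleotide array, on which a spot is the brighter the more transcript its probe binds. A probe was taken when its description in the study's lists of differentially expressed genes held one of those words, so that the probes were selected on comparisons made with these same males. Of the 92 probes, 50 were listed only where the study compared maturing with immature males (listed for status), and 42 were listed in at least one comparison between rations (listed for ration). Probe CUST_5213_PI417904088, for 60S ribosomal protein L6, is among the 50. No table pairs these probes with gene symbols or sequences here, and no sequence is shown.

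Testis RNA of 37 Atlantic salmon males was hybridized with 1 male per array, 21 males on the restricted ration (RR) and 16 on the normal ration (NR), as the sample titles give them. The RR fish received the same feed as the NR fish but on fewer days of the week. All came from one sea cage and were then kept in 2 cages, one per ration, so that cage and ration cannot be told apart. The study describes both immature and maturing males in each ration, so that each group here mixes both. Among the males sampled in December and January it reports a lower rate of maturation in RR than in NR males. The males on the arrays were selected from these by testis histology, so that this rate need not hold for them. The mix may still differ between the rations. A difference between rations may therefore hold a difference in status, which was not tested. The labels used here give neither the maturational status nor the sampling date of a male, and males were compared by ration only. The males carry the numbers of their titles (RR male 1 to 21, NR male 1 to 16). Without gene symbols for the probes, genes that define germ, Sertoli or Leydig cells were not examined. The tissue label was therefore not checked against such genes.

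A ribosome is built in the nucleolus from RNA and ribosomal proteins and works in the cytosol, while mitochondria have a ribosome of their own. Aminoacyl-tRNA synthetases load each tRNA with its amino acid, initiation factors place the ribosome on the start of an mRNA, and elongation factors move it along. The need for this machinery is known to be high in growing and dividing cells. In a testis that enters puberty the spermatogonia and Sertoli cells divide more. Because whole tissue was measured, fewer cells of a type and less RNA per cell cannot be told apart.

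Levels are log2 of the background-corrected brightness, quantile normalized between arrays. Between 34084 and 43287 probes per RR array and between 34857 and 41394 per NR array were well above background, and 40684 probes that were so on at least 16 arrays were tested. All 92 probes were among them, and none was saturated. The arrays were scanned on 2 days, 6 RR and 11 NR males on the first and 15 RR and 5 NR males on the second, so that scan day and ration overlap in part. RR male 16 had the brightest array (median 859.7, against 237 to 445 in the other RR males and 229 to 470 in NR males) and the lowest level of all RR males in 23 of the 92 probes, against 26 in RR male 4.

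Between rations few of these probes passed the test, and the largest differences lay in a few cytosolic ribosomal proteins. Both probes for 40S ribosomal protein S13 were lower in RR males, and the probe for 60S ribosomal protein L6 came close to a call in the same direction. Of the 92 probes, 0 were called higher and 2 were called lower in RR males (limma, Benjamini-Hochberg adjusted p under 0.01 and fold change over 1.5), against 0.0885% of all probes tested called higher and 0.167% called lower. At an unadjusted p under 0.05 there were 4 higher and 9 lower, against 6.29% and 10.1% of all probes tested. Both called probes were listed for ration, so that this contrast had a part in choosing them. Among the 50 probes listed for status 0 were called in either direction, with 0 higher and 3 lower at an unadjusted p under 0.05, a share no larger than in the background. The median log2 difference (RR minus NR) was 0.033 over the 50 probes and 0.13 over the 42 probes, against -0.018 over all probes tested.

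With all 92 probes counted, the cytosolic ribosomal proteins were the only role with most of its members below 0. Over all 40684 probes tested 21955 were below 0 and 18729 above, which is the background for the counts of signs given here for each role and list. Of the 14 cytosolic probes 11 were below 0 and 3 above, with a median of -0.29. Of the 8 listed for status 5 were below 0, near the share over all probes, with a median of -0.26. An unadjusted p under 0.05 was found for 2 of these 8 (L6 and L18a), both below 0. Among the probes listed for status this role was not alone. The transcription machinery there had 6 of 9 below 0, with a median of -0.046. With 75th percentile scaling in place of quantile normalization 10 of the 14 were below 0, and 13 with the same-numbered males as a block.

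40S ribosomal protein S13 is a protein of the small subunit. Probe CUST_33367_PI417904088 ranged from 14.17 (RR male 4) over a median of 15.52 to 17.18 (RR male 1) in RR males, and from 15.92 (NR male 7) over a median of 16.60 to 17.22 (NR male 3) in NR males. The groups overlapped, but all RR males except 2 had a level under the NR median. The log2 difference was -1.06 (standard error 0.204). Probe CUST_25651_PI417904088, of the same description, ranged from 15.16 over 16.43 to 17.65 in RR males and from 16.81 over 17.33 to 17.67 in NR males. Again 19 of the 21 RR levels were under the NR median, and the log2 difference was -0.93 (standard error 0.167). Both probes were listed for ration, and no p is given for them. With scan day as a block the differences were -1.09 and -0.90, and neither probe was called.

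Both S13 probes moved from male to male with the red blood cell probes. Of the 7 probes for hemoglobin subunits and erythroid 5-aminolevulinate synthase, 5 were called lower in RR males and 1 was above 0, with a median log2 difference of -1.09. These probes were taken from the study's lists, 6 of the 7 from a ration comparison, so that ration had a part in choosing them. None was at or near background. The log2 of their summed signal ranged from 16.97 over 18.13 to 19.50 in RR males and from 18.42 over 19.09 to 19.50 in NR males. RR males 4, 11 and 15, with the 3 lowest levels of CUST_33367_PI417904088 (14.17, 14.20 and 14.69), also had the 3 lowest sums (16.97, 17.13 and 17.37). RR male 1, at 17.18, had a sum of 19.50, and NR male 7, the lowest NR male of this probe at 15.92, had the lowest NR sum of 18.42. The part of red blood cells in the S13 difference was not tested.

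60S ribosomal protein L6, a protein of the large subunit, was the member listed for status with the lowest adjusted p. Its probe CUST_5213_PI417904088 ranged from 13.41 (RR male 16) over a median of 14.88 to 16.60 (RR male 17) in RR males, and from 14.68 (NR male 6) over a median of 15.83 to 16.92 (NR male 16) in NR males. The ranges overlapped widely, although 19 of the 21 RR levels were under the NR median. Means were 14.88 ± 0.741 in RR males (SD, n = 21) and 15.91 ± 0.683 in NR males (SD, n = 16). The log2 difference was -1.04 (standard error 0.231, limma adjusted p = 0.0122), past the fold but not the p of a call. With scan day as a block it was -0.89 (adjusted p = 0.0981), within the first day -1.22 and within the second -0.55. Beside the red blood cell sum the levels of L6 were more scattered than those of S13. RR male 4, with the lowest sum, had an L6 level of 15.05, and RR male 17, with the highest L6 level of the RR males, had a sum of 18.07.

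**Figure D1:**
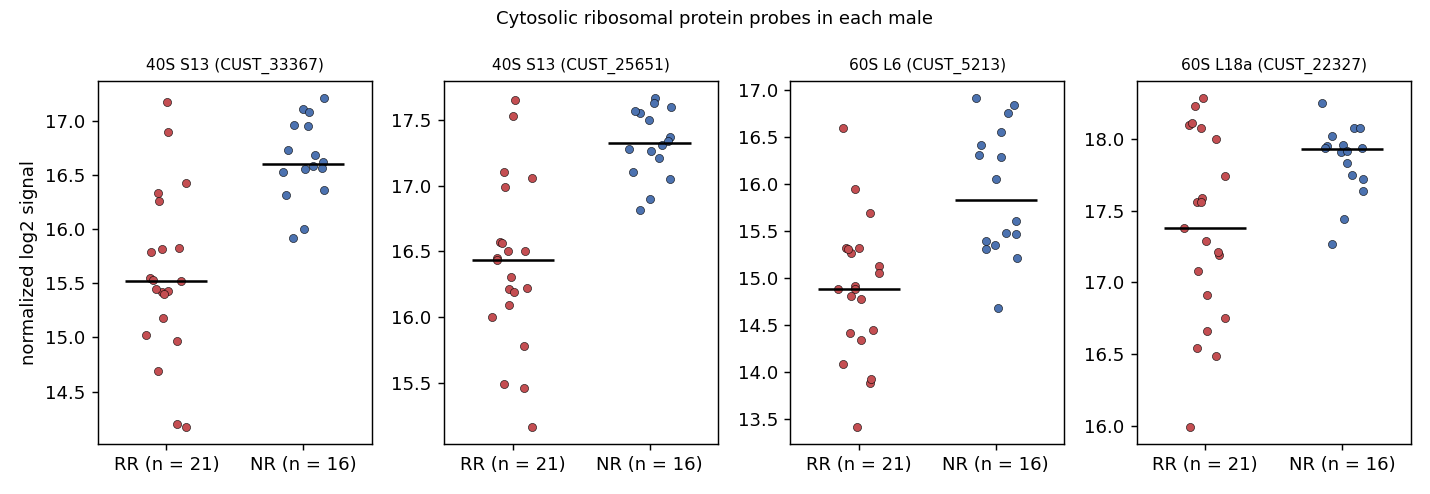
Normalized log2 signal (vertical axis) of 4 probes for cytosolic ribosomal proteins, 1 point per male, RR males (red) left of NR males (blue), with the median as a line. The RR medians of both S13 probes and of L6 lie about 1 log2 unit under the NR medians, with overlap between the rations in every panel.

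**Figure D2:**
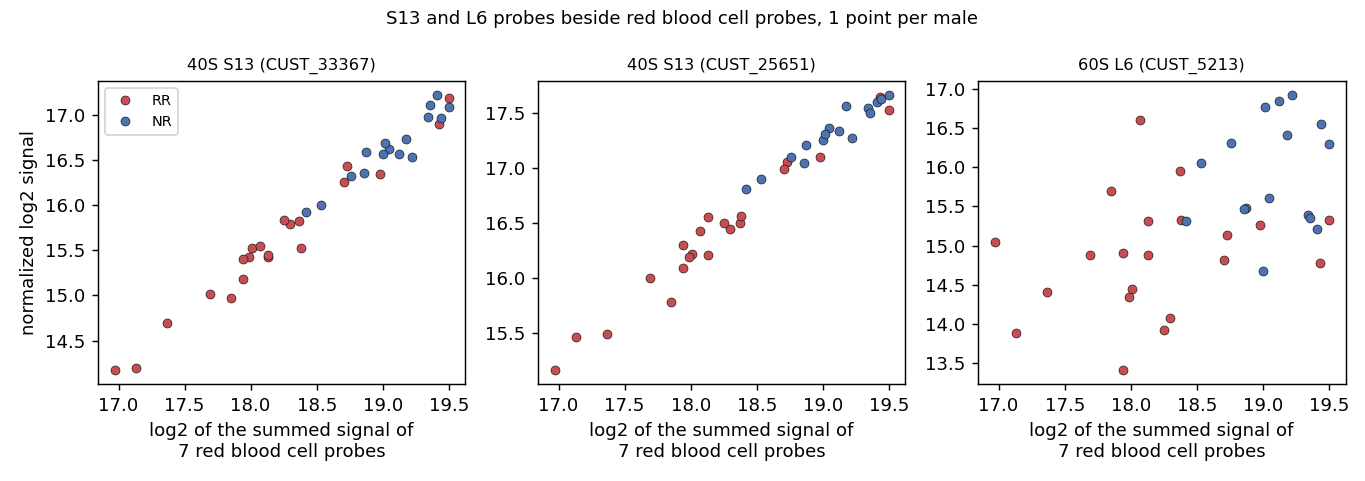
Normalized log2 signal of both S13 probes and of L6 (vertical axes) against the log2 of the summed signal of 7 red blood cell probes (horizontal axis), 1 point per male, RR males in red and NR males in blue. The S13 points lie along a line from RR male 4 (sum 16.97) to the males with a sum of 19.50, whereas the L6 points are scattered.

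Other proteins of the large subunit differed by less. 60S ribosomal protein L18a (CUST_22327_PI417904088) ranged from 15.99 over 17.38 to 18.29 in RR males and from 17.27 over 17.93 to 18.25 in NR males. The RR males were spread far wider (SD 0.649, against 0.249 in NR males) and included the highest level of all, that of RR male 16 with the brightest array. The log2 difference of -0.49 (standard error 0.168) did not pass the test (limma adjusted p = 0.130). L21 and L5 differed by -0.34 and -0.33 (limma adjusted p = 0.560 and 0.400), and L22-like 1, listed for ration, by -0.41. In L21, RR males 16 and 11 lay far under the rest, at 3.43 and 3.68, against 4.77 in RR male 3 and at least 5.75 in NR males. RR male 16 was also the lowest RR male of L5. The 2 probes for the acidic stalk protein P2 were at -0.24 (CUST_5595_PI417904088) and -0.18 (CUST_18627_PI417904088). S3 and S14 were close to 0 at -0.097 and -0.11. On the other side of 0 lay L7-like 1 at 0.11, S23 at 0.12 and L13a at 0.25 (limma adjusted p = 0.419). None of these probes was called.

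Of the 17 probes for mitochondrial ribosomal proteins none was called between rations. The median log2 difference was 0.072, with a range from -0.12 to 0.20, 13 above 0 and 4 below, and 0 had an unadjusted p under 0.05 (limma). With the same-numbered males as a block, which leaves out RR males 17 to 21, 1 of the 17 was above 0. The largest differences were those of S6 (CUST_663_PI417904088) at 0.20 and S25 (CUST_822_PI417904088) at 0.19, with limma adjusted p = 0.457 and 0.317. S6 ranged from 10.21 over 10.83 to 12.22 in RR males and from 10.36 over 10.80 to 11.33 in NR males, so that the medians were alike and the RR range reached higher. The paired probes of L37 differed by 0.091 (11_2_5_10) and 0.020 (CUST_13009_PI417904088). Those of L35 had opposite signs, -0.12 (CUST_12567_PI417904088) and 0.048 (CUST_18897_PI417904088), each within its standard error (0.241 and 0.0994).

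The aminoacyl-tRNA synthetases were the only role of more than 2 members with every member on one side. All 16 probes were above 0, from 0.085 to 0.35, with a median of 0.18, yet 0 were called, and the 3 with an unadjusted p under 0.05 (glycyl-, valyl- and mitochondrial aspartyl-tRNA synthetase) were all listed for ration. The direction was not stable: 3 of the 16 were above 0 with the same-numbered males as a block, which leaves out RR males 17 to 21, 9 with array weights, 7 within the first scan day and 15 within the second. The 5 listed for status had a median of 0.17 and a lowest limma adjusted p of 0.363 (tyrosyl-tRNA synthetase, 0.26). Glycyl-tRNA synthetase (CUST_3975_PI417904088) differed by 0.35, ranging from 6.95 over 7.39 to 9.14 in RR males and from 6.89 over 7.35 to 7.80 in NR males. Its medians were nearly equal, and only the upper RR levels reached beyond the NR males. Valyl-tRNA synthetase (CUST_16322_PI417904088) differed by 0.34, with 17 of 21 RR males above the NR median and a range from 10.06 over 10.86 to 11.62 in RR males and from 9.88 over 10.47 to 11.13 in NR males. In this enzyme the whole RR distribution lay higher, with overlap, but with scan day as a block its difference was 0.15. The paired probes for asparaginyl-tRNA synthetase were at 0.14 (12_3_19_20) and 0.29 (CUST_17923_PI417904088). Those for threonyl-tRNA synthetase were at 0.17 (CUST_13312_PI417904088) and 0.16 (CUST_36599_PI417904088).

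Among the 18 probes for initiation factors and eIF4E-binding proteins 14 were above 0 and 4 below, with a median of 0.11 and none called. With the same-numbered males as a block 4 of the 18 were above 0. The cap-binding protein eIF4E and one of its inhibitors marked the ends of the range. eIF4E (CUST_23854_PI417904088) ranged from 10.26 over 10.85 to 12.88 in RR males and from 10.21 over 10.62 to 11.66 in NR males. The bulk of both groups overlapped, with some RR males far above the rest. Its log2 difference was 0.43 (standard error 0.236, limma adjusted p = 0.361). The eIF4E-1A-binding protein (CUST_23207_PI417904088, listed for ration), of the family that keeps eIF4E from the rest of the initiation complex, ranged from 14.16 over 15.58 to 16.34 in RR males and from 15.54 over 15.82 to 16.38 in NR males. Here the difference was -0.43 (standard error 0.157), and some RR males lay far below the rest. eIF4E-binding protein 2 was at -0.37 (limma adjusted p = 0.597). It varied most of all, and its lowest level of 3.83 was that of RR male 16.

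The 2 probes for subunit 1 of eIF2, which brings the initiator tRNA, were at 0.10 (CUST_15790_PI417904088) and 0.29 (CUST_227_PI417904088). Those for the eIF3 subunit E-interacting protein were at 0.066 (CUST_10605_PI417904088) and 0.13 (CUST_27144_PI417904088). In eIF3 subunit J the paired probes disagreed in sign, with -0.14 (CUST_16775_PI417904088) and 0.21 (CUST_22526_PI417904088), and in eIF4H they were at -0.0093 (CUST_15236_PI417904088) and 0.13 (CUST_21632_PI417904088). eIF5, which triggers GTP hydrolysis at the start codon, was at 0.22 and was listed for ration. Of the elongation factors, the gamma subunit of EF1 (CUST_13546_PI417904088) was at -0.15 (limma adjusted p = 0.750) and mitochondrial EF-G 1 (CUST_18308_PI417904088) at 0.19.

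The 7 nucleolar proteins had a median of 0.026, and 0 had an unadjusted p under 0.05. Of those well above background on all arrays, nucleolar GTP-binding protein 1 (CUST_24343_PI417904088), which takes part in making the large subunit, was at -0.21 and the cell growth-regulating nucleolar protein (CUST_2117_PI417904088) at 0.13, with limma adjusted p = 0.545 and 0.572. IMP3 of the U3 particle, at -0.48 (limma adjusted p = 0.386), stood well above background in 18 of 21 RR males and in all 16 NR males, and its lowest level of 2.06 was again that of RR male 16. The 16 probes of the transcription machinery were split evenly, 8 above and 8 below 0. Of the 9 listed for status 6 were below 0 and 3 above. RNA polymerase II subunit RPB11-a (CUST_17589_PI417904088) ranged from 11.47 over 11.92 to 13.68 in RR males and from 12.19 over 12.53 to 13.37 in NR males. Its RR median lay under the lowest NR male, while its highest RR males lay above every NR male, which left a difference of -0.29 (standard error 0.193, limma adjusted p = 0.445). With the same-numbered males as a block it was -0.68 (limma adjusted p = 0.00131). That block leaves out RR males 17 to 21, the highest RR males here, but keeps the highest NR males (16, 15 and 13). It thus compares unlike sets of males, and over all probes its lower calls numbered 164, against 68 without it. Negative elongation factor E (4_1_14_8), a subunit of a complex that pauses RNA polymerase II, was also at -0.29. The 2 probes for subunit A of that complex disagreed in sign, with 0.21 (CUST_25078_PI417904088) and -0.11 (CUST_3840_PI417904088). Of the 2 remaining probes, ribosomal protein S6 kinase alpha-3 (CUST_32939_PI417904088) was at 0.12, and nucleolar and spindle-associated protein 1, a protein of the mitotic spindle, at -0.52 (limma adjusted p = 0.273).

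**Figure D3:**
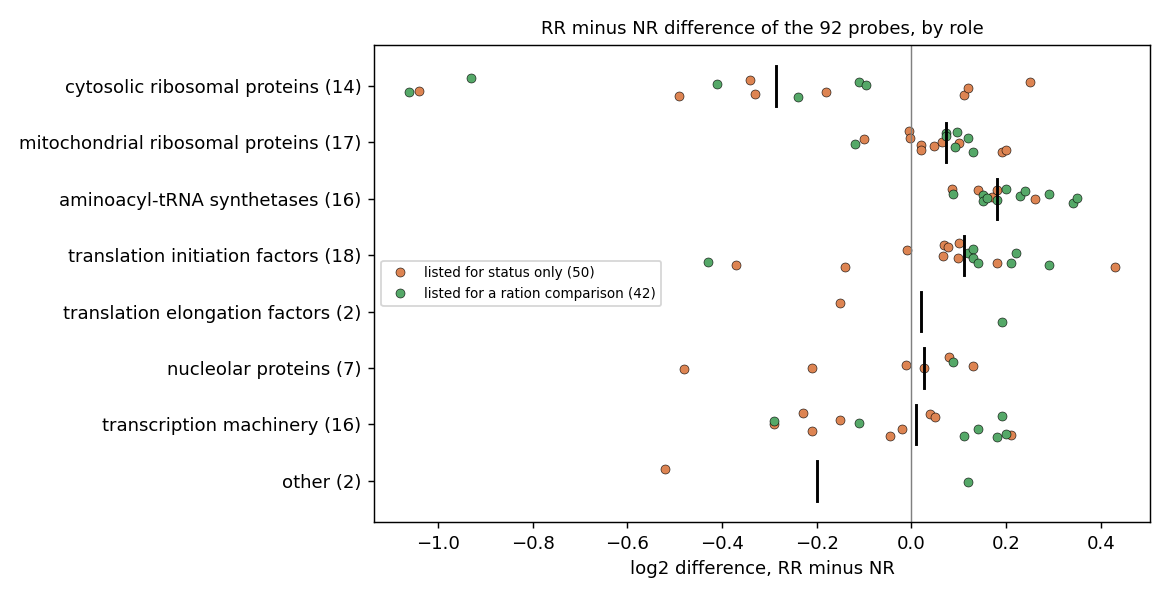
Log2 difference of RR minus NR (horizontal axis) of the 92 probes by role (rows, number of probes in brackets), 1 point per probe, colored by the comparison that listed it, with the median of each role as a black line. The 3 points near -1 are both S13 probes and L6, and all 16 aminoacyl-tRNA synthetases lie above 0.

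Within a ration the probes varied together from male to male. Males were described one by one after their values were seen, with no test, since the lists that gave the probes rest on differences among these males. Counting for each male how many of the 92 probes were above the median of its own ration, RR males 17, 18, 19, 20 and 21 had 82, 85, 84, 81 and 83 (89.1%, 92.4%, 91.3%, 88.0% and 90.2%). The other RR males had between 8 (RR male 7) and 57 (RR male 1). Over all probes tested, the same count came to 44.9% in RR male 20 and to 49.7% in RR male 17. In NR males the highest counts were 82 probes in NR male 16, 78 in NR male 13 and 74 in NR male 15, and the lowest 14 in NR male 7. NR male 16 had the highest level of all NR males in 49 of the 92 probes.

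**Figure D4:**
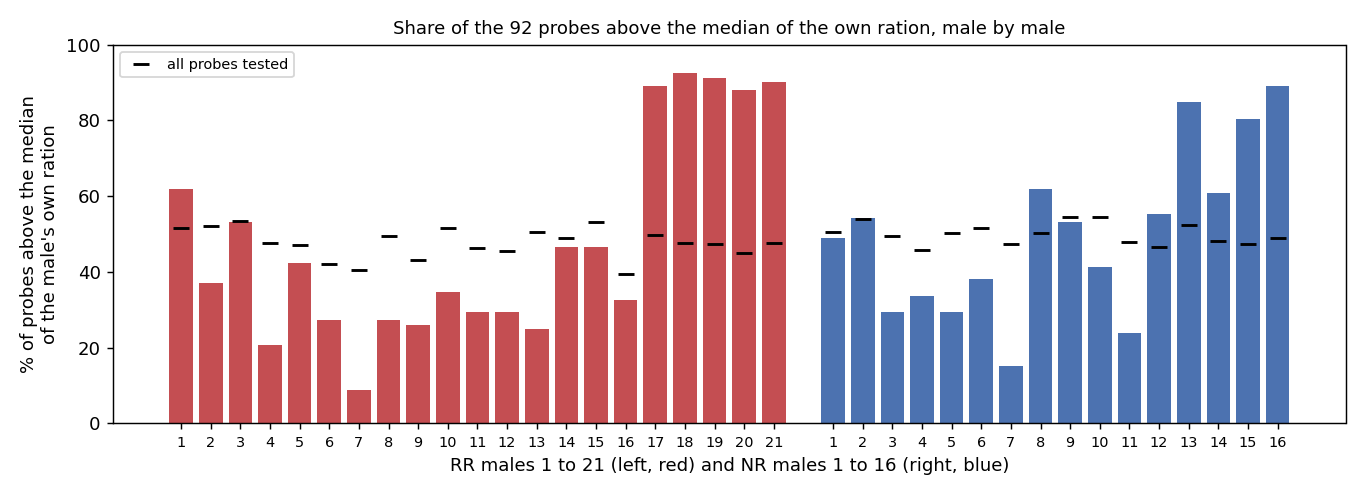
Share of the 92 probes above the median of the own ration (vertical axis, percent) in each male (bars), RR males in red left of NR males in blue, with the same share over all 40684 probes tested as a black dash. The bars of RR males 17 to 21 and of NR males 13, 15 and 16 stand above 80%, while the dashes stay between 39.4% and 54.5%.

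The same males came first when ranks of the same values were counted, which is no separate support. Because the probes were listed for differences among these males, part of the excess over all probes was fixed by their selection. The window of the 5 highest also equals the number of RR males that had stood out. The level of RR male 18 was among the 5 highest RR levels in 82 of the 92 probes (89.1%), against 30.3% of the 40448 probes with a value in every RR male. RR male 21 was so in 81 of the 92 (30.5% of all probes), RR male 19 in 80 (31.1% of all probes), RR male 20 in 75 (35.2% of all probes) and RR male 17 in 69 (26.2% of all probes). No other RR male was among the 5 highest in more than 8 of the 92 probes. NR male 16 was among the 5 highest NR levels in 73 probes (35% of all probes), NR male 13 in 60 (32.3%) and NR male 15 in 57 (29.1%). At the other end, RR male 4 was among the 5 lowest RR levels in 55 probes (31.2% of all probes), and NR male 7 among the 5 lowest NR levels in 60 (35.3%). RR male 16 was so in 50 of the 92, close to its share of all probes (45.2%).

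The size of the deviation differed between roles, but the probes were listed for differences among these males. Of the 16 synthetases 5 were listed for status, and of the 17 mitochondrial ribosomal proteins 10. The part of this listing in the order of the roles was not tested. In RR male 18 the median deviation from the RR median was 1.30 log2 units over the aminoacyl-tRNA synthetases. It was 1.20 over the 2 elongation factors, 0.95 over the initiation factors and 0.84 over the nucleolar proteins. Over the mitochondrial and the cytosolic ribosomal proteins it was 0.74 and 0.70, and over the transcription machinery 0.56. RR male 17 deviated less, by 0.66 over the synthetases and 0.38 over the mitochondrial ribosomal proteins. NR male 16 deviated from the NR median by 0.44 over the synthetases, 0.47 over the initiation factors and 0.26 over the cytosolic ribosomal proteins. In RR male 4 the cytosolic ribosomal proteins were at -0.37 and the mitochondrial ones at -0.51.

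Alanyl-tRNA synthetase (CUST_16673_PI417904088, listed for ration, 0.15 between rations) showed this most clearly among the synthetases. RR males 17 to 21 had levels of 12.02, 13.06, 12.99, 12.70 and 12.95, and the next RR male 11.18. The highest NR male was NR male 16 with 11.79, followed by 11.36. The other RR males, from 10.41 (RR male 4) to 11.18, overlapped with the NR males, but several of them lay under the lowest NR level of 10.71 (NR male 11). In eIF4E (CUST_23854_PI417904088) RR males 17 to 21 had 11.71, 12.88, 12.70, 12.85 and 12.68, the next RR male 11.27 and NR male 16 had 11.66. 39S ribosomal protein L51 of mitochondria (CUST_13011_PI417904088), also listed for ration, had a wide step. Its levels were 9.72, 10.37, 10.30, 10.29 and 10.25 in these males and 8.59 in the next RR male, against 8.98 in the highest NR male. L13a of the cytosolic ribosome (CUST_25760_PI417904088) had 14.14, 14.80, 14.92, 15.25 and 14.73, with 13.80 in the next RR male and 14.13 in NR male 16. In these 4 probes RR male 17 was the lowest of the 5.

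Some probes departed from this order, and the level of RR male 18 was among the 5 lowest RR levels in 7 of the 92. In the eIF4E-1A-binding protein (CUST_23207_PI417904088) RR males 17 to 21 had 14.97, 14.21, 14.16, 14.72 and 14.46, and the next RR male 15.41. NR male 16, at 15.54, was the lowest NR male. The probe of negative elongation factor A that ran high in the same males (CUST_25078_PI417904088) had levels of at least 13.99 in them and 13.61 in the next RR male, whereas the CUST_3840_PI417904088 probe of the same description held its 5 lowest RR levels in them. Negative elongation factor E (4_1_14_8) too held its 5 lowest RR levels in RR males 17 to 21. Nucleolar GTP-binding protein 1 had most of these males among its 5 lowest RR levels. So did S3, L22-like 1 and the CUST_5595_PI417904088 probe of P2, all of the cytosolic ribosome. In neither S13 probe was RR male 17, 18, 19, 20 or 21 among the 5 highest RR levels. L6 (CUST_5213_PI417904088) kept to the order, with 16.60, 15.95, 15.32, 15.31 and 15.69 in these males, among the 6 highest RR levels but under the highest NR level of 16.92.

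**Figure D5:**
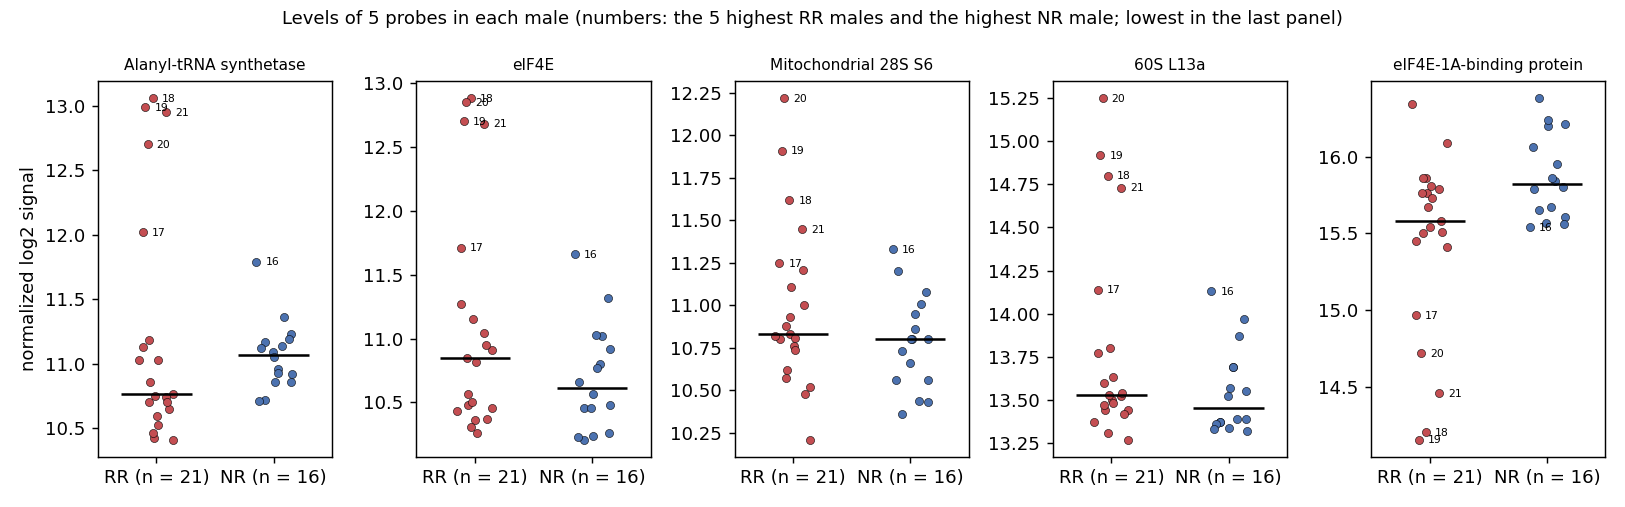
Normalized log2 signal (vertical axis) of alanyl-tRNA synthetase, eIF4E, mitochondrial 28S ribosomal protein S6, 60S ribosomal protein L13a and the eIF4E-1A-binding protein, 1 point per male, RR males (red) left of NR males (blue), with the median as a line and numbers beside the 5 highest RR levels and the highest NR level (in the last panel the lowest). The numbers of the RR points are 17 to 21 and that of the NR point is 16 in every panel.

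Probes for dividing cells and for collagens were high in the same males. Both sets were taken from the study's lists, so that they too were chosen on differences among these males. Over 19 probes for MCM proteins, mitotic cyclins, cyclin-E1, PCNA, KI-67 and ribonucleotide reductase, the median deviation from the own ration's median was taken. It was 1.49, 1.68, 1.69, 1.58 and 1.64 log2 units in RR males 17 to 21. In the other RR males it was at most 0.51, and in NR males at most 0.58 (NR male 16). The log2 of the summed signal of the 19 probes ranged from 16.02 over 16.51 to 18.09 in RR males and from 16.35 over 16.98 to 17.37 in NR males. None of the 19 was called between rations. The 6 collagen probes had their highest RR sums in the same males, at 14.50, 15.39, 15.15, 14.69 and 14.90 in RR males 17 to 21 and at most 13.53 (RR male 2) in the other RR males. These sums rest mostly on collagen alpha-1(IV), by far the brightest (mean 13.13 in RR and 13.65 in NR males). The mean log2 level of the 6 probes was between 9.88 and 10.36 in RR males 17 to 21. It was at most 8.90 (RR male 5) in the other RR males and 9.71 (NR male 16) in NR males. The sums ranged from 12.23 over 13.11 to 15.39 in RR males and from 12.41 over 13.83 to 14.82 in NR males, and all 6 probes were below 0 between rations with 0 called. Of RR males 17 to 21, RR male 19 was scanned on the first day and the other 4 on the second. The parts of cell composition and of maturational status in the pattern were not tested. Which of these males were maturing is not given by the labels used here.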

How the data were processed

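Testis RNA of 37 males was measured on one-color arrays. The authors deposited the intensity of each spot as Feature Extraction 10.7.1.1 gave it, and a table of log2 values, which were found to be log2 of the intensity less background, not normalized between arrays (1589471 values compared, differing by at most 5e-09). Here log2 of the processed intensity was quantile normalized with limma 3.58.1 under R 4.3.3. Controls were left out, and 581 outlier spots were set to missing. The 40684 probes with signal well above background in 16 or more males were compared by lmFit and eBayes, RR minus NR, in place of the methods' t-test, and called at an adjusted p under 0.01 and a fold over 1.5. The number of arrays limits the precision. In data simulated for this comparison 49 and 47 of 50 probes changed by -2 and 2 on the log2 scale were called. At -1 and 1 these were 45 and 43 of 50, and 3 of 40484 left unchanged were called. Whether such counts hold for the measured arrays, where scan day and ration overlap in part, was not tested.

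Rations came from the titles, since another label calls all 37 normal. Scan day and slide came from the headers. Members and lists were chosen with earlier results of these data known. By rule the text names, within each role, called members, the 2 largest differences among probes well above background on all arrays, and pairs of 1 description, besides L6. Other members, and the examples by male, were named after their values were seen. The authors' fold changes and p-values in the study's lists were not used. Alternatives were scaling, filters, background correction, scan day, slide, replicate number, array weights, the methods' t-test and each male left out.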

Additional observations from a re-analysis of the deposited data

How the results depend on the processing

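No member was called higher in RR males under any alternative run. Both S13 probes, which were listed for ration, were called lower in all 37 tests with 1 male left out, and L6 in 4. These tests share nearly all of their males and the contrast that had a part in choosing S13, so that they are no separate support. Members called lower numbered 0 with scan day as a block, with slide as a fixed block and within each scan day, 5 with the replicate block (both S13 probes, L6, L18a and RPB11-a) and 4 with array weights. Over all probes the lower calls numbered 68, against 0, 1, 0 and 0 in those first 4 settings, 164 under the replicate block and 101 when arrays were weighted. For L6 the difference was past both thresholds among probes well above background on all arrays (-1.04, adjusted p = 0.00914), with the replicate block (-1.32, adjusted p = 0.00649) and with array weights (-1.09, adjusted p = 0.00112). Leaving out 1 male gave values between -1.12 and -0.96 (adjusted p from 0.00371 to 0.0269), under 0.01 without RR males 17, 18 or 21 or NR male 6. The cause was not tested. Over all alternatives its adjusted p was at most 0.830 (within the second scan day).

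Same-numbered males deviated together little (correlation over 0.1 in 6 of 16 pairs, median 0.0644, from -0.262 to 0.385). Of the 16 RR males with a partner, 3 correlated best with their own number. No label used here calls them pairs, but the numbers are not free of scan day: males 1 to 5 of both rations were all scanned on the second day. RR males 17 to 21 have no partner and do not contribute to the replicate block. With it the medians were -0.18 (listed for status) and -0.060 (listed for ration).

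Many differences changed sign, up to that of eIF4E at 0.43, the top of the range of the 92 probes. With the replicate block: L35 (CUST_18897) -0.12, L37 -0.18 and -0.33, asparaginyl- -0.32 and -0.21 and threonyl-tRNA synthetase -0.16 and -0.20, cell growth-regulating nucleolar protein -0.066, EF-G 1 -0.091, eIF2 subunit 1 (CUST_15790) and eIF3 E-interacting protein (CUST_10605) -0.079 each, eIF4E -0.023, eIF4H (CUST_21632) -0.21, mitochondrial S6 -0.018, S6 kinase -0.036, negative elongation factor A (CUST_3840) 0.14 and nucleolar GTP-binding protein 1 0.077. With array weights the L35 probe was at -0.019, L37 at -0.082 and -0.15, asparaginyl-tRNA synthetase (12_3_19_20) at -0.085, the cell growth-regulating protein at -0.0044, eIF2 subunit 1 at -0.0036, eIF4H (CUST_21632) at -0.039, negative elongation factor A at 0.044 and nucleolar GTP-binding protein 1 at 0.040. Within the first scan day L35 (CUST_12567) was at 0.059, L37 at -0.063 and -0.079, asparaginyl- at -0.20 and -0.11 and threonyl-tRNA synthetase at -0.033 and -0.010, EF-G 1 at -0.011, eIF4H (CUST_21632) at -0.014, negative elongation factor A at 0.018 and S6 kinase at -0.027. Within the second the eIF3 E-interacting protein (CUST_27144) was at -0.14. The CUST_15236 probe of eIF4H, at -0.0093, was at 0.031 with 75th percentile scaling, 0.053 with the deposited log2 values, 0.071 with the median signal, 0.075 with normexp, 0.019 with scan day and 0.035 with slide as a block and 0.26 within the second day. EF1-gamma was at 0.0050, 0.0049 and 0.0061 with the deposited values, the median signal and normexp, L35 (CUST_12567) at 0.18 with 75th percentile scaling and 0.027 with normexp, and asparaginyl-tRNA synthetase (12_3_19_20) at -0.0035 with slide as a fixed block. With each male left out, L35 (CUST_12567) lay between -0.20 and 0.037, L37 (CUST_13009) between -0.049 and 0.070 and eIF4H (CUST_15236) between -0.076 and 0.045. The median of all probes was 0.066 with 75th percentile scaling, against -0.018. IMP3 was not well above background on 3 RR arrays.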

Other observations

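Neighbors of the pathway, taken by words in the study's lists and so chosen on these males too, were compared between rations in the same fit. Of 17 probes for ribosome assembly 15 were above 0 and 2 below in RR minus NR, with a median of 0.10 and 0 called. At an unadjusted p under 0.05 there were 3 higher and 1 lower (limma). The largest differences were those of nucleophosmin, a nucleolar chaperone (CUST_41152_PI417904088, -0.56), and of a ribosome biogenesis regulatory protein (CUST_11572_PI417904088, 0.31). Its levels ranged from 12.46 over 12.68 to 13.61 in RR males and from 12.20 over 12.52 to 13.07 in NR males. The other nucleophosmin probe (CUST_20666_PI417904088) was at 0.13.

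Of 11 probes for the protein folding complexes CCT and prefoldin 10 were above 0, with a median of 0.16, 0 called and 1 higher at an unadjusted p under 0.05 (limma). Both probes for the epsilon subunit of CCT were above 0, at 0.24 and 0.29 (CUST_13108_PI417904088 and CUST_26330_PI417904088). The 2 probes for termination, release factor 1 and a peptidyl-tRNA hydrolase, were at 0.16 and 0.17, neither called. As with the members, RR males 17 to 21 were high. The log2 of the summed signal of the folding probes was between 17.32 and 17.87 in them and at most 17.08 in the other RR males. That of the assembly probes was between 16.89 and 17.42, against at most 16.56. In NR males the highest sums, both of NR male 16, were 17.20 for folding and 16.88 for assembly, close to the lowest of these RR males.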
